A study of Mus musculus with 3 samples.

Results

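The late-numbered mouse microRNA hairpins are the precursors that miRBase, the catalogue of microRNAs, registered under numbers of 1000 and above. Their windows were taken by number from the deposited table of miR locations, without mir-1224, mir-3074 and the late-numbered windows in an imprinted cluster on chromosome 12. This gave 1055 of the 2045 miR windows, which fell on 647 of the 1187 hairpins in the table, and the other 540 hairpins served as the background. Those 540 included the hairpins of 23 late-numbered windows that the selection left out.

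Small RNA was sequenced in 3 libraries of 1 group, primary aortic smooth muscle cells (AoSMC) of C57BL/6 mice with no further treatment. The cells grew out of pieces of several mouse aortas and were kept in serum until nearly confluent. According to the study's methods, such cells were grown in medium with charcoal-treated serum before they were used. The libraries are called biological replicates without a statement that they came from separate cultures, so every p-value below covers nothing but the variation among these 3 libraries, possibly of technical origin. The libraries held between 15123616 and 18636286 mapped reads, of which 73.1% to 83.0% lay in the windows of miRs or of microRNA-offset RNAs (moRs), the short RNAs next to a miR on the outer side of its arm. Levels are given in RPMR, the reads of a window scaled to a common total of 1e+06 reads in all such windows of its library. The smooth muscle miRs miR-143, miR-145a and miR-21a together reached 548973 to 591292 RPMR, most of it miR-21a (mean 517788 RPMR), which many other cell types also express, whereas miR-143 had a mean of 51101 RPMR and miR-145a of 2293 RPMR. By contrast, the 4 blood miRs stayed at 0.513 to 1.12 RPMR, and liver miR-122 at 1.54 to 1.75 RPMR. Endothelial miR-126a lay at 125 to 158 RPMR, and the striated muscle list at 118 to 152 RPMR, nearly all of it miR-206, with miR-208a at 0. The epithelial list lay at 7.41 to 8.22 RPMR and the neuronal list, mostly miR-128, at 310 to 399 RPMR. The part of such cells in the results was not tested.

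A typical microRNA is made in a pair of cuts. The nuclear enzyme Drosha with its partner Dgcr8 frees a hairpin from a long transcript, and Dicer then removes the loop, which leaves a short 5p and a short 3p strand, 1 of which is usually loaded into an Argonaute protein. Mirtrons skip Drosha because the splicing of a short intron makes the hairpin ends, and some small nucleolar RNAs (snoRNAs) and Cajal body RNAs (scaRNAs), whose main work is to guide chemical changes of ribosomal and spliceosomal RNA, are also cut into miR-sized pieces. Late numbers were given mostly from deep sequencing, so these entries hold many hairpins of these kinds and many with little evidence, and the question here was which of them had reads in AoSMC.

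Mature sequences were matched by coordinates in RefSeq (GRCm38.p6, the build of mm10) for 920 of the 1055 windows. The first set shows mature miRs of late-numbered hairpins that the results below turn on, most of them abundant, and both strands of mir-1306, with the seed (bases 2 to 8, counted from the 5′ end) in capitals.
mmu-miR-1839-5p: aAGGUAGAuagaacaggucuug
mmu-miR-1198-5p: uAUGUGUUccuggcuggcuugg
mmu-miR-1843a-5p: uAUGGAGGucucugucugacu
mmu-miR-1843b-5p: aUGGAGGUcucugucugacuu
mmu-miR-3535: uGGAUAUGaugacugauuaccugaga
mmu-miR-1983: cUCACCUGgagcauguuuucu
mmu-miR-1981-5p: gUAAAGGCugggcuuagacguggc
mmu-miR-7649-3p: uCUCUCCAgcacugcuuguuucu
mmu-miR-7688-5p: uAGCUGGGcaugaucugaugagc
mmu-miR-1964-3p: cCGACUUCugggcuccggcuuu
mmu-miR-1306-5p: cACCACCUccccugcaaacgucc
mmu-miR-1306-3p: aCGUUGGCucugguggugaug

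The second set shows 3p miRs whose last base is also the last base of an annotated intron, with their final AG, the bases at which spliceosomes cut, in capitals. They stand for a group that made up much of the late-numbered hairpins.
mmu-miR-6944-3p: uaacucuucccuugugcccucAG
mmu-miR-6988-3p: ugaccucuguaucuccugccAG
mmu-miR-7015-3p: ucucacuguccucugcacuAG
mmu-miR-6911-3p: ucaaucacacucuguccacAG
mmu-miR-6975-3p: ucucuccuuucuccuccuAG
mmu-miR-7079-3p: ugacuucuguucucuuuccAG

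Within the first set, miR-1843a-5p and miR-1843b-5p shared a run of 20 bases that began at position 2 of miR-1843a-5p and at position 1 of miR-1843b-5p. Their annotated seeds are therefore offset by 1 base, and reads of the shared run can fit either locus. Among the 166 late-numbered windows with a sequence and 10 or more reads there were 159 different seeds, in part because some names have several loci. Only 3 of the 166 had the whole seed of a miR from the other hairpins at 1 RPMR or more. These were miR-6240 with CAAAGCA, the seed of miR-330-3p, miR-3473d with CACUGAG, the seed of miR-674-5p, and miR-6932-3p with CUGUUCU, the seed of miR-26a-2-3p and miR-26b-3p. Bases 2 to 7 of miR-1839-5p, AGGUAG, were the same as bases 3 to 8 of let-7a-5p, a member of the let-7 family that restrains growth in many cells. Such a match of 6 bases offset by 1, set against the 43 miRs of the other hairpins at 1000 RPMR or more, was found for 3 late-numbered miRs, the others being miR-7018-3p and miR-7068-3p against miR-10a-5p.

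A hairpin was called supported when its arms had at least 10 miR reads over the 3 libraries and at least 1 in every library. Of the 647 late-numbered hairpins 164 were supported (25.3%), against 318 of the 540 other hairpins (58.9%) and 40.6% of all hairpins in the table. No read was found for 295 late-numbered hairpins (45.6%), against 150 of the other hairpins (27.8%) and 37.5% of all, and 0 reads over all libraries allow a level of up to 0.0725 RPMR by counting error alone. Between 1 and 9 reads were found for 187 late-numbered hairpins. The last one, mir-7008, had 10 reads but none in replicate 3. A miR on the opposite strand overlaps 5 of the late-numbered hairpins. Among them, miR-3073a-3p and miR-3073b-5p had 14 reads each and the same mean of 0.332 RPMR. The same reads may count for both, which was not tested.

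Support differed by number. Of the hairpins numbered from 1000 to under 2000, 31 of 81 were supported (38.3%), and of those from 3000 to under 4000, 40 of 86 (46.5%). The range from 4000 to under 6000 had 18 of 51 (35.3%), and the 4 hairpins from 2000 to under 3000 had 0 supported and 1 read in all. The 2 highest ranges held most of the annotations but a smaller share with support, 36 of 209 from 6000 to under 7000 (17.2%) and 39 of 216 from 7000 on (18.1%). The range from 1000 to under 2000 alone held 66.6% of all late-numbered miR reads.

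**Figure D1:**
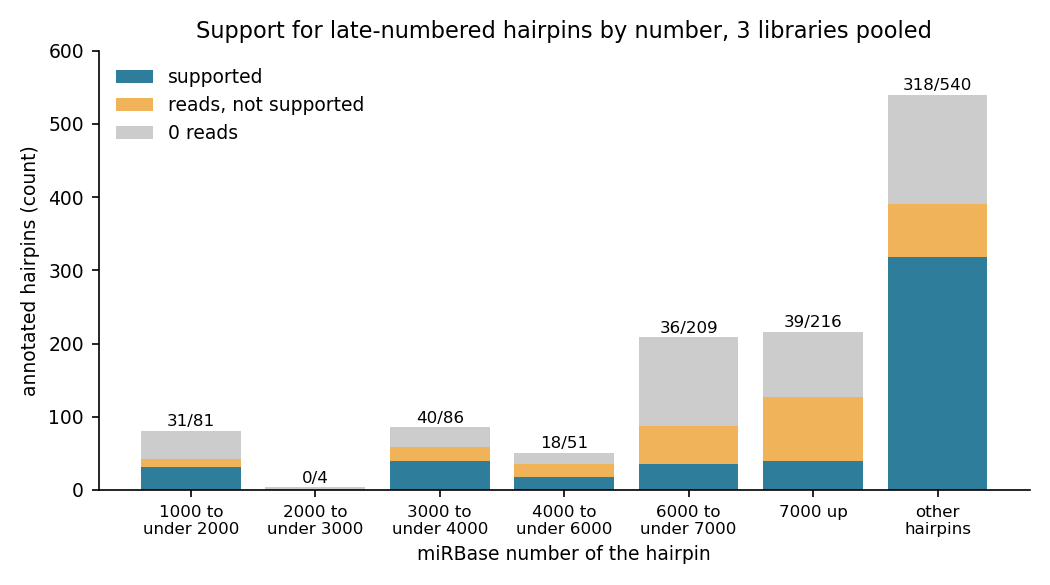
Annotated hairpins by miRBase number (bars, count), split into supported hairpins, hairpins with reads that were not supported and hairpins with 0 reads over 3 libraries; the numbers above the bars give supported over annotated hairpins. The bar of the other hairpins has 318 of 540 supported, and each late-numbered range has a smaller supported share.

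Hairpins near the limit had few reads in each library. Just inside it, mir-6909 had 2, 3 and 5 reads in replicates 1, 2 and 3, mir-6929 had 3, 4 and 3, and mir-7675 had 5, 4 and 1. Just outside it, mir-8118 had 3 reads in each replicate, mir-7666 had 1, 4 and 4, and mir-7083 had 1, 2 and 6. In all 8 hairpins held 10 to under 11 reads and 5 held 9, so the limit divides hairpins that differ by a single read.

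Late-numbered hairpins were scarce even where they were supported. They held 39407 of the miR reads, or 0.0953%, with 937, 956 and 964 RPMR in replicates 1, 2 and 3 (mean 953 ± 13.9, SD, n = 3). The median supported late-numbered hairpin had 0.695 RPMR, against 44.8 RPMR among the other supported hairpins, and 102 of the 164 lay under 1 RPMR, against 39 of 318. Over all annotations, 62 late-numbered hairpins reached 1 RPMR (9.58%), against 279 of the others (51.7%) and 28.7% of the table, and 37 had 100 or more reads (5.72%), against 252 (46.7%) and 24.3%. The highest reached 181 RPMR, a level that 117 of the other hairpins exceeded. Few hairpins carried the signal, since the 10 highest held 66.6% of the late-numbered reads and mir-1839 alone 19.0%. The libraries ordered the supported hairpins alike, with Pearson r of log2 RPMR across hairpins of 0.931 to 0.938 between pairs of libraries. This is a description over 164 hairpins of the same 3 libraries, which are not independent replicates.

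**Figure D2:**
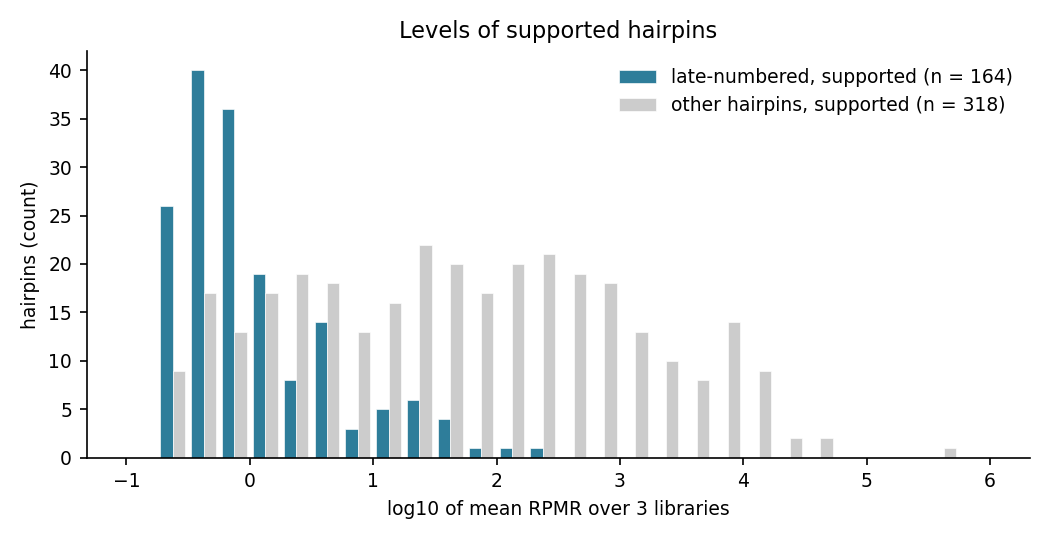
Number of supported hairpins (y axis, count) by log10 of mean RPMR over 3 libraries (x axis), late-numbered hairpins (n = 164) beside the other hairpins (n = 318). The late-numbered hairpins have a median of 0.695 RPMR and a highest value of 181 RPMR, and the other hairpins a median of 44.8 RPMR.

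The hairpin with most reads was mir-1839 (Mir1839, mm10 chr7:81529916-81529988, plus strand, at an exon of 2900076A07Rik). It had 2205, 2414 and 2887 reads in replicates 1, 2 and 3, or 181 ± 17.1 RPMR (SD, n = 3). GENCODE M21 holds a second gene at this locus, of the scaRNA class and also under the symbol Mir1839.

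Next came mir-1198 (Mir1198, chrX:7807101-7807221, plus strand), in an intron of Gripap1, the gene of a protein of endosome traffic. It had 1268, 1378 and 1754 reads, or 106 ± 11.7 RPMR (SD, n = 3). All 3 libraries were below those of mir-1839 and above those of mir-1843a, and mir-1198 was the highest hairpin that overlapped no other small RNA gene.

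The pair mir-1843a (chr12:80391613-80391677, minus strand) and mir-1843b (chr1:159340358-159340423, plus strand, in an intron of the ubiquitin ligase gene Cop1) lies on the scaRNA genes Scarna3b and Scarna3a. The reads of mir-1843a were 1173, 911 and 1080.5 in replicates 1, 2 and 3, or 76.6 ± 8.20 RPMR (SD, n = 3). Those of mir-1843b were 666, 565 and 675.5, or 46.1 ± 2.37 RPMR (SD, n = 3). Some of these values are not whole because reads that fit both loci were divided between them, so the division between the 2 hairpins is uncertain.

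Then followed mir-3535, on a snoRNA gene at an exon of Ncl (nucleolin, a protein of ribosome assembly), with 53.4 ± 3.13 RPMR (SD, n = 3). At nearly the same level, mir-1983 had 53.0 ± 1.75 RPMR (SD, n = 3). It overlaps a tRNA gene for which the RefSeq table gives no strand. The ranges of mir-3535 and mir-1983 over the libraries overlapped, and mir-1843b lay below both in every library. Further down, mir-1981 was lower than mir-1843b in each library, with 40.6, 37.5 and 33.6 RPMR.

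The next group lay between 20 and 30 RPMR. It held mir-7649 with 27.2 ± 3.19 RPMR, mir-1949 with 27.0 ± 2.20 RPMR and mir-3068 with 26.5 ± 1.84 RPMR (SD, n = 3 each), whose ranges over the libraries overlapped. Below it, mir-7688, mir-1964, mir-1249, mir-3102, mir-1306, mir-5099, mir-5121 and mir-3081 formed a run between 19.7 and 12.1 RPMR in which every hairpin overlapped its neighbour over the libraries. The last of the 20 highest were mir-1291 with 8.73 ± 0.713 RPMR and mir-3066 with 6.60 ± 1.14 RPMR (SD, n = 3 each). Over the 37 hairpins with 100 or more reads the coefficient of variation between libraries had a median of 9.64% and ran from 3.29% to 34.9%, the highest for mir-3970 with 90, 48 and 56 reads.

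**Figure D3:**
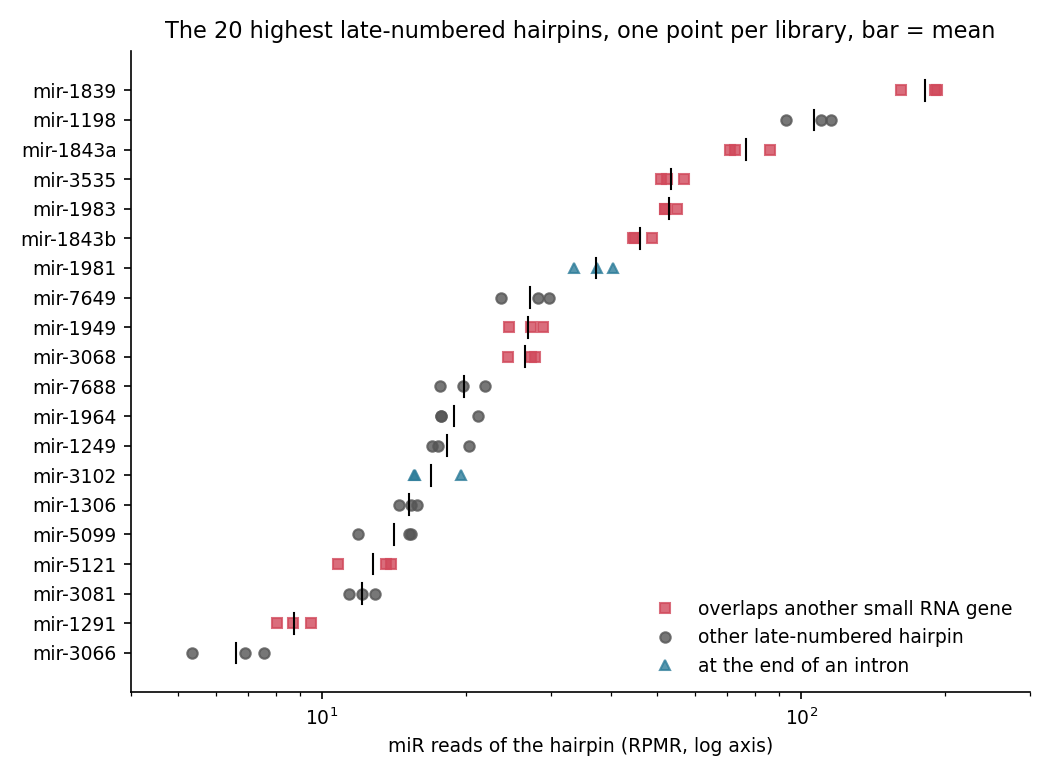
RPMR on a log axis of the 20 late-numbered hairpins with the highest mean, one point per library and a bar at the mean of 3 libraries; squares overlap another small RNA gene, triangles lie at the end of an intron and circles are the other hairpins. The values range from 181 RPMR for mir-1839 to 6.60 RPMR for mir-3066, and 9 of the 20 are squares.

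Overlap with another small structured RNA was rare among the annotations and common among the reads. Only 15 late-numbered hairpins (2.32%) overlapped a snoRNA, scaRNA, tRNA or similar gene, against 2 of the other hairpins (0.37%) and 1.43% of all, yet 12 of the 15 were supported. These 15 held 20302 reads, 51.5% of the late-numbered total, with 50.8%, 52.7% and 51.1% in replicates 1, 2 and 3. They included 7 of the 10 highest hairpins. For mir-1839, mir-1949 and mir-3068 the overlapping scaRNA or snoRNA gene has the symbol of the microRNA itself. These hairpins had 7506, 1109 and 1098 reads, in that order, so much of the overlap rests on such entries. Beside those above, mir-5121 lies on Snord33 in the gene of the ribosomal protein Rpl13a, with 147, 171 and 211 reads, and mir-1291 on the snoRNA Snora34 in Kansl2, with 129, 109 and 122 reads. The hairpin mir-6516 on a scaRNA gene of Snhg20 had 151 reads in all. Both loci of mir-3084, on snoRNA genes in Cbwd1 and Eif3a, had 33 reads each, divided between them. The tables count reads inside the miR windows only, so pieces of the structured RNA and products of Dicer cannot be told apart in them.

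By place in the genome, 47 of 163 late-numbered hairpins at exons were supported (28.8%), 95 of 332 in introns (28.6%) and 22 of 152 outside genes (14.5%). The same shares for the other hairpins were 68.2%, 58.7% and 54.0%. Late-numbered hairpins with only 1 annotated miR were supported less often by count, 31 of 241 (12.9%) beside 133 of 406 with both arms annotated (32.8%). The other hairpins showed the same order, 19 of 90 (21.1%) beside 299 of 450 (66.4%). Hairpins with 1 annotated miR have fewer windows in which reads can count, and these differences were not tested.

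Reads on both arms are the part of the usual evidence for a cut hairpin that these tables can show. At least 10 reads on each arm were found for 28 of the 406 late-numbered hairpins with both arms annotated (6.9%), against 190 of 450 other hairpins (42.2%) and 25.5% of all. Of the 133 supported ones, 28 had 10 on each (21.1%), against 190 of 299 (63.5%) and 50.5% of all, 86 had at least 1 on each, and 47 had none on the other arm. Without overlaps of small RNA genes and without divided reads, 19 of the 28 were left, among them mir-1198, mir-1981, mir-7649, mir-3102, mir-1306, mir-3066, mir-1247, mir-1955 and mir-1943.

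The hairpin mir-1306 (chr16:18284239-18284317, minus strand) lies in an exon of Dgcr8, whose own transcript is known to be cut by the enzyme complex that Dgcr8 forms with Drosha. Its 5p arm had 122, 103 and 150 reads in replicates 1, 2 and 3, and its 3p arm had 93, 79 and 83. The 5p arm was higher in each library, by 0.55 ± 0.20 on the log2 scale (SE, edgeR quasi-likelihood test, adjusted p = 0.0172 by Benjamini-Hochberg over all 433 tested hairpins). The call was lost with DESeq2 (adjusted p = 0.0692) and without replicate 2 or 3 (edgeR, adjusted p = 0.0547 and 0.152). Its neighbour mir-3618, in the same transcript (chr16:18284550-18284637, minus strand), had 0, 1 and 1 reads on the 3p arm and none on the 5p arm. Its moR windows held 0, 1 and 2 reads, so mir-3618 was not supported beside mir-1306 with 630 reads.

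The 5p and 3p arms were set against each other with edgeR in every hairpin of the table with both arms annotated and a sum of at least 10 reads, the library being the block. Among 134 late-numbered hairpins 36 had a higher 5p arm (26.9%) and 70 a higher 3p arm (52.2%). Among the 299 other hairpins tested 149 had a higher 5p arm (49.8%) and 127 a higher 3p arm (42.5%), and over all 433 the shares were 42.7% and 45.5%. The median difference of 5p over 3p was -1.69 on the log2 scale for the late-numbered hairpins, against 0.91 for the other hairpins. The count of higher 3p arms was 44, of 99 tested, without replicate 3. With at least 30 reads the counts came to 22 for 5p and 27 for 3p among 58 tested, a nearly even split.

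A higher 3p arm was common in late-numbered hairpins at the ends of introns. This class, a hairpin whose outer miR end lies within 5 bases of the end of an annotated intron, was formed after results were seen, and the difference between the classes was not tested. It held 238 late-numbered hairpins (36.8%) and 9 of the other hairpins (1.67%), or 20.8% of all, and in 181 of the 238 the 3p miR ended exactly with the intron. All 158 of those 3p miRs with a sequence ended in AG, as introns do, which follows from choosing them by the intron end. Of the 313 other late-numbered 3p miRs, 28 ended in AG (8.95%), and nothing is read from the difference. The class had 62 of 238 supported (26.1%), beside 25.3% of all late-numbered hairpins. Of 62 tested at an intron end 6 had a higher 5p arm and 45 a higher 3p arm. Of the 72 tested elsewhere 30 had a higher 5p arm and 25 a higher 3p arm. The class lay mostly in the numbers from 6000 on, with 107 hairpins from 6000 to under 7000 and 107 from 7000 on. Below 6000, 3 of 15 tested at an intron end had a higher 5p arm and 10 a higher 3p arm, beside 25 and 13 of 51 tested elsewhere. From 6000 on, 3 of 47 tested at an intron end had a higher 5p arm and 35 a higher 3p arm, beside 5 and 12 of 21 tested elsewhere. In both ranges the share with a higher 3p arm was larger at intron ends, 66.7% beside 25.5% below 6000 and 74.5% beside 57.1% from 6000 on. Away from intron ends it was also larger from 6000 on, and none of these differences was tested.

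**Figure D4:**
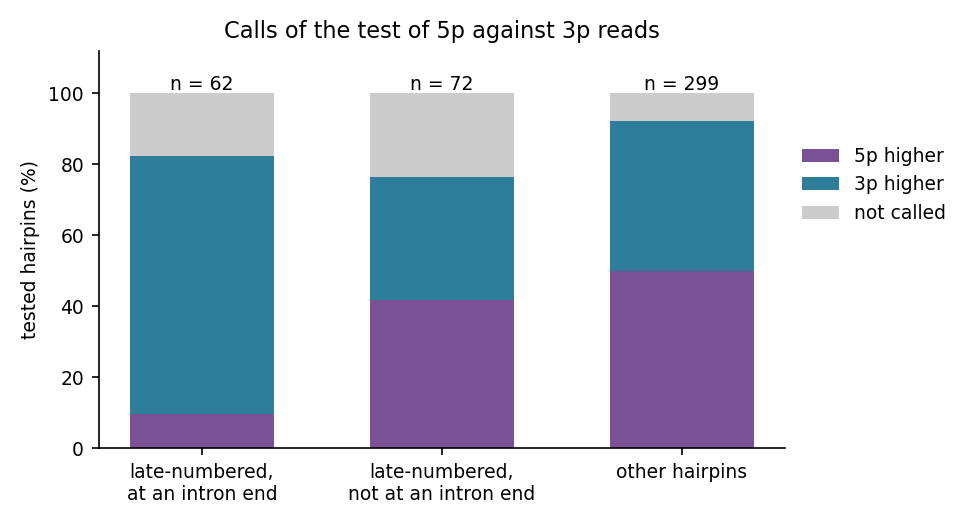
Share of tested hairpins (y axis, %) with a higher 5p arm, a higher 3p arm or no call by edgeR at an adjusted p under 0.05, for late-numbered hairpins at an intron end (n = 62), late-numbered hairpins elsewhere (n = 72) and the other hairpins (n = 299). A higher 3p arm was called for 45, 25 and 127 of them in that order.

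Several introns stood for this class. The hairpin mir-6944, which fills an intron of Dbn1 (drebrin, an actin-binding protein) from end to end, had 68, 57 and 68 reads on the 3p arm and 0 on the 5p arm in every library. With the 5p arm set to 3 reads, the limit that a count of 0 allows over the pooled libraries, the 3p arm was at least 64.3-fold higher (edgeR, adjusted p = 1.18e-08). At the end of an intron of Syvn1, a ubiquitin ligase of the endoplasmic reticulum, mir-6988 had 38, 19 and 34 reads on the 3p arm and 0 on the 5p arm, at least 30.3-fold higher on 3p (edgeR, adjusted p = 2.61e-07). Further 3p-sided hairpins with sequences above were mir-7015 in Smap2, with 4 reads on 5p and 64 on 3p, and mir-6911 in Dazap1, with 2 on 5p and 61 on 3p. The 3p arm also led in mir-6975 in Ddx39b, with 0 reads on 5p and 53 on 3p, and in mir-7079 in the ribosomal protein gene Rpl13, with 1 on 5p and 48 on 3p. The 6 exceptions had a higher 5p arm. In an intron of Marc2, a mitochondrial reductase gene, mir-1981 had 487, 407 and 462 reads on the 5p arm and 66, 64 and 48 on the 3p arm, 2.93 ± 0.20 higher on 5p on the log2 scale (SE, edgeR, adjusted p = 1.55e-09). They also included mir-6960 in Troap, with 31 reads on 5p and 1 on 3p, mir-3064 at Ddx5, with 33 on 5p and 3 on 3p, and mir-1231 in Nav1, with 21 on 5p and 3 on 3p.

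Away from intron ends both directions were found, some of them extreme. A large difference towards 5p was that of mir-7688, outside annotated genes, which had 299, 247 and 267 reads on the 5p arm and 0 on the 3p arm. This was at least 271-fold higher on 5p (edgeR, adjusted p = 1.59e-10), and 0 of 813 reads allow a 3p share of up to 0.369%. For mir-1198 the 5p arm had 1262, 1368 and 1742 reads and the 3p arm 6, 10 and 12, a difference of 7.27 ± 0.24 on the log2 scale (SE, edgeR, adjusted p = 2.31e-13). The lowest 5p library stood far above the highest 3p library. Further hairpins with a called 5p arm and no 3p read were mir-1191b, in an intron of the transcription factor gene Nfic, with 82 reads on 5p, mir-1947 in Lmln with 72 and mir-5620 with 27. Their 5p arms were at least 27.3-fold, 24.0-fold and 9.0-fold higher, in that order, and a fitted fold change against 0 reads would not rank them. Some hairpins with reads on both arms had ratios of 5p to 3p reads above all 3 of these bounds. Among them were mir-1198 with 156, mir-1948 with 69.0, mir-3057 with 42.3 and mir-1839 with 36.5.

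Towards 3p, mir-1964 in an intron of the zinc finger gene Zfp84 had 289, 222 and 269 reads on the 3p arm and 0 on the 5p arm, at least 260.0-fold higher on 3p (edgeR, adjusted p = 1.79e-10). In an intron of Boc, a co-receptor for hedgehog ligands, mir-3081 had 155, 152 and 196 reads on the 3p arm and 0 on the 5p arm, at least 168-fold higher on 3p (edgeR, adjusted p = 5.66e-10). With 0 reads on the 5p arm as well, mir-3060 in Rnf215 had 55, 38 and 59 reads on the 3p arm. Thus 5 hairpins with 100 or more reads lacked any read on an annotated arm, namely mir-7688, mir-1964, mir-3081, mir-6944 and mir-3060. Another marked case was mir-1249, at an exon of 5031439G07Rik, with 8 reads on the 5p arm and 745 on the 3p arm, or -6.47 ± 0.35 for 5p over 3p on the log2 scale (SE, edgeR, adjusted p = 1.13e-10).

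Among hairpins on small RNA genes no higher 3p arm was called. Of 7 tested, 4 had a higher 5p arm (57.1%) and 0 a higher 3p arm, beside 42.7% and 45.5% of all 433 tested. With 7 hairpins, of which both mir-3084 loci share the same divided reads, nothing is read from these shares. For mir-1839 the 5p arm had 2140, 2339 and 2827 reads and the 3p arm 65, 75 and 60, a difference of 5.18 ± 0.19 on the log2 scale (SE, edgeR, adjusted p = 1.20e-12). The difference was 3.73 ± 0.20 for mir-1843a, 2.04 ± 0.19 for mir-1843b and 1.51 ± 0.18 for mir-3068 (SE, log2 of 5p over 3p). Near balance were mir-6516, with 82 reads on 5p and 69 on 3p, and both loci of mir-3084, with 17 on 5p and 16 on 3p each, none of which was called.

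Some hairpins showed both arms at like levels. In an intron of Phf21a, mir-1955 had 46, 28 and 44 reads on the 5p arm and 46, 27 and 38 on the 3p arm, a difference of 0.09 ± 0.22 on the log2 scale (SE, edgeR, adjusted p = 0.706). At an exon of Dio3os, mir-1247 had 64, 53 and 54 reads on the 5p arm and 21, 27 and 52 on the 3p arm, higher on 5p by 0.81 ± 0.27 (SE, log2, edgeR, adjusted p = 0.0115). Its arms nearly met in replicate 3, and the call was lost with DESeq2 (adjusted p = 0.0634), with no filter on the sum (edgeR, adjusted p = 0.0537) and without replicate 1 or 2 (edgeR, adjusted p = 0.193 and 0.196). Among the 106 late-numbered hairpins called, 105 had the same direction in every library.

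**Figure D5:**
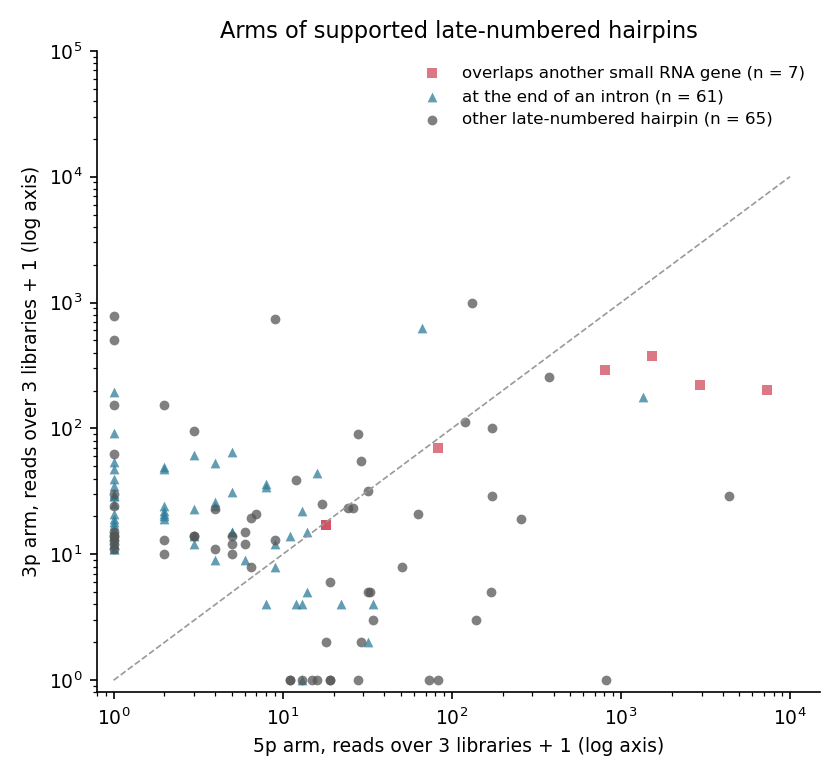
Reads over 3 libraries plus 1 of the 5p arm (x axis) and of the 3p arm (y axis), both on log axes, for the 133 supported late-numbered hairpins with both arms annotated; the dashed line marks equal arms. Hairpins at an intron end lie mostly above the line (51 of 61), and all 7 on another small RNA gene lie below it, some of them close to it.

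Reads beside the miR windows were scarce. A moR read was found for 46 of the 1055 late-numbered windows, 31 of which had just 1, and only 3 had 10 or more. By hairpin, 42 of 647 had a moR read (6.49%), against 184 of the other 540 (34.1%) and 19.0% of all. An arm was tested for moR against miR only if it had at least 1 moR read and both summed to 10 or more. Arms without a moR read did not enter, so the shares hold only for arms with one. Of 18 such late-numbered arms, 1 had more moR than miR (5.56%) and 14 had less (77.8%). The same shares were 5.78% and 92.9% of the 225 other arms and 5.76% and 91.8% of all 243 tested. The count of 14 came to 9 without replicate 2 and to 9 without replicate 3, when fewer arms could be tested.

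The one arm with more moR was that of miR-3102-3p.2, from a hairpin that spans an intron of Arhgef17. Its moR window had 229, 173 and 195 reads and its miR window 27, 13 and 25, a difference of 3.21 ± 0.26 on the log2 scale (SE, edgeR, adjusted p = 8.41e-31). A pair of miRs is annotated on each arm of mir-3102, so that the windows lie on each other. The moR window, chr7:100882295-100882333, covers the whole of miR-3102-3p at chr7:100882307-100882329, which had 215, 165 and 187 reads. Likewise the moR of miR-3102-5p.2 had 3, 2 and 2 reads, the counts of miR-3102-5p, whose window it overlaps. The moR and the outer miR of mir-3102 therefore cannot be told apart in these counts, and this hairpin held 604 of the 692 late-numbered moR reads.

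The other 2 windows with 10 or more moR reads were different. For miR-5121, on Snord33, the moR had 5, 5 and 4 reads and the miR 147, 171 and 211, or -5.20 ± 0.34 on the log2 scale (SE, edgeR, adjusted p = 4.11e-43). For miR-3064-3p at Ddx5, a helicase found with Drosha, the moR had 4, 3 and 3 reads and the miR 2, 0 and 1, a difference of 1.63 ± 1.16 that was not called (SE, log2, edgeR, adjusted p = 0.165). The abundant miR-1839-5p and miR-1198-5p had a single moR read each, beside 7306 and 4372 miR reads.

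Some features of the mature sequence were not used by the selection. A first base U was annotated for 78 of the 166 with 10 or more reads (47.0%) and for 207 of the 494 with 0 reads (41.9%). The median length was 22 bases in both, and the median GC content 52.2% with 10 or more reads and 57.1% with 0 reads. For the other hairpins with 10 or more reads the first base was U in 39.5% and the median GC content was 45.8%. These are descriptions of annotated sequences, several of which share a locus or a name, and were not tested.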

How the data were processed

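Small RNA libraries of 3 AoSMC samples were read as single reads. According to the study's methods the authors kept trimmed reads longer than 13 bases, aligned them to mm10 with Bowtie (its version is not given in the sources used here) without mismatches at no more than 5 places, and divided reads between precursors that fitted equally well. Reads from hairpins with more copies were therefore not counted. The deposited raw reads per miR and moR window are expected counts, and 96.1% of the values were whole within 1e-9. The authors widened each miR by 3 bases. A second deposited table by the authors holds RPMR, in effect RPM scaled to the sum over miR and moR windows, which was recomputed from the expected counts and equalled the deposited one within 7.3e-12.

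Windows without a row were given 0 reads, and deposited starts were read as 1-based. All 1187 hairpins were matched to GENCODE M21 microRNA genes, and 241 late-numbered hairpins with a single annotated miR took their arm from its position. The fold tests used edgeR 4.0.16 (R 4.3.3) on counts rounded to whole numbers, with window totals as library sizes and the library as block, because both values of a pair were counted in 1 library. The tests took pairs that summed to 10 or more reads, and the moR test took only arms with at least 1 moR read. Pairs were called at a Benjamini-Hochberg adjusted p under 0.05. The SE of a log2 difference was derived from the difference and the F statistic of the edgeR test. It is approximate and least reliable for differences near 0. Against 0 reads, folds were computed from 3 reads, the most that 0 allows, pooled over libraries (0.22, 0.239 and 0.198 RPMR per library for replicates 1, 2 and 3). Floors cover counting error only, since reads without molecular identifiers are not independent molecules. The scripts were tested on simulated data. DESeq2 1.42.0, TMM factors, other read limits, no block and libraries left out were alternatives. Other steps used Python 3.11.15, pandas 2.3.3, numpy 2.4.6, SciPy 1.17.1 and matplotlib 3.10.9.

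The hairpins and lists were chosen with earlier results of these data known. Named hairpins follow a rule, which takes the 20 highest supported ones, the 5 largest fitted log2 fold changes between arms per direction with one direction in every library, arms with 10 or more moR reads, hairpins at Dgcr8, supported overlaps of small RNA genes, 3 hairpins on each side of the limit of 10 reads, and hairpins with 100 or more reads that lack an annotated arm. Fitted folds against an arm at 0 reads depend on the prior count and give no rank. The class at intron ends, the other hairpins named beside these, and the seed and AG searches were added after values were seen.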

Additional observations from a re-analysis of the deposited data

How the results depend on the processing

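The count of supported late-numbered hairpins was 164, and came to 80 with at least 30 reads, 37 with at least 100 reads and 62 with a mean of at least 1 RPMR. With at least 5 reads it was 208, without the demand per library 165, with whole reads only 153, without overlaps of small RNA genes 152, and with 1 library left out 128 to 137. The count with both arms was 28, and came to 128 with at least 1 read on each arm, to 16 with at least 5 on each and 100 in all, and to 22 to 24 with 1 library left out. The level was 0.0953% of window reads (0.0947% to 0.0960% with 1 library left out) and 0.0756% of all mapped reads.

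Of the late-numbered hairpins, 36 had a higher 5p and 70 a higher 3p arm. These counts were 31 and 57 with DESeq2, 36 and 70 with TMM factors, 33 and 64 with no filter on the sum, and 22 and 27 with a sum of at least 30 reads. With 1 library left out they ran from 27 to 28 and from 44 to 49. Without the block for the pairing by library, which comes from the design, they were 38 and 73. For moR against miR of the same arm the count of higher miRs was 14, 9 to 10 with 1 library left out and 15 without the replicate block, and that of higher moRs stayed at 1. The unblocked fit changed 1 call of a named arm, that of miR-7666-3p. No called direction was reversed in any alternative run on the named hairpins and arms. Within 0 or 2 bases of an intron end, settings chosen after seeing the data, 55 and 62 supported hairpins were counted, against 62 within 5 bases. The lower counts with higher limits or fewer libraries follow from fewer hairpins passing, and the cause of the other changes was not tested. At 10 reads over 3 libraries each read weighs much, so 0 reads on an arm or hairpin do not show absence at this depth.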

Other observations

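Some late-numbered hairpins outside the selection had more reads than most inside it. The highest was mir-3074, whose loci lie on the strand opposite the mir-24 hairpins. Mir3074-2 on chromosome 8 had 27381, 38779 and 51102 reads in replicates 1, 2 and 3, or 2822 ± 718 RPMR (SD, n = 3). Mir3074-1 on chromosome 13 had 24749, 34082 and 42097 reads, or 2435 ± 538 RPMR (SD, n = 3). The tables list the same 5p reads, 24544, 33899 and 41878, at both loci, so the 5p reads of the loci cannot be told apart. On the opposite strand Mir24-2 had 3655 RPMR and Mir24-1 had 3267 RPMR. The study's methods do not say that reads were counted by strand, and this was not tested. Reads of mir-3074 and of mir-24 therefore cannot be told apart here either. In the imprinted cluster of chromosome 12, mir-3071 lies on the strand opposite mir-136, at Rtl1, and had 473, 371 and 456 reads, or 31.4 ± 2.83 RPMR (SD, n = 3). Its 5p arm had 858 reads and its 3p arm 442. At the same place mir-136 had 32.1 RPMR, and reads of mir-3071 and of mir-136 likewise cannot be told apart here. In the same cluster mir-1193 had 155 reads and mir-3544, opposite mir-337, had 42, whereas mir-3072, mir-1197 and mir-1188 had 8, 5 and 3. The levels of mir-3544 and mir-337 differed, with 0.998 RPMR for mir-3544 and 19.3 RPMR for mir-337. No read was found for both loci of mir-3070, for mir-1906 at Meg3 and for mir-1224.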
